A study of Homo sapiens with 6 samples.

Results

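The 7 genes of the cyclin-dependent kinase (CDK) inhibitors were followed in HaCaT keratinocytes with and without FGFR2: the CIP/KIP genes *CDKN1A*, *CDKN1B* and *CDKN1C* and the INK4 genes *CDKN2A*, *CDKN2B*, *CDKN2C* and *CDKN2D*. They were picked by name, through the Ensembl identifiers of the GENCODE annotation, from the 21475 genes analysed, and all 7 were present and passed the filter of a mean of at least 0.5 FPKM (fragments normalized for transcript length and library depth). HaCaT cells are human keratinocytes that became immortal without added genes. The 3 WT lines are labelled wild type, and in the 3 FGFR2 KO lines the gene had been cut with Cas9 and a single guide RNA against exon 7. All lines were grown in serum-containing medium and none received an added stimulus. Each KO line grew from 1 sorted cell. The study's text counts the original, uncloned population among its WT lines, while a legend calls the sequenced WT lines clonal, and the labels do not say which WT library, if any, is the uncloned one. Each line gave 1 library, so that differences between clones and between genotypes cannot be told apart within a single line. The p-values measure the spread between these lines.

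CDK inhibitors slow the cell cycle in G1. CIP/KIP proteins (p21, p27 and p57, from *CDKN1A*, *CDKN1B* and *CDKN1C*) bind whole cyclin-CDK complexes, above all those of CDK2, whereas INK4 proteins (p16, p15, p18 and p19, from *CDKN2A* to *CDKN2D*) bind CDK4 and CDK6 and keep D-type cyclins off them. In the epidermis these proteins accompany the exit of keratinocytes from the cell cycle, p15 and p21 are induced by TGF-β, and loss of the locus that holds *CDKN2A* and *CDKN2B* is common in squamous tumours.

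Start regions are shown for *CDKN1A* and *CDKN2B*, the members with an unadjusted p under 0.05 between KO and WT, and for *CDKN2A*, which lies next to *CDKN2B* and has separate start sites for p16 and for ARF, a protein read in another frame. Each stretch of 300 bases (RefSeq, GRCh38.p14) runs from 250 bases before a start to 50 bases after it and is written 5′ to 3′ on the strand of the gene. Capitals mark GC boxes, the letters GGGCGG on either strand, counted with overlaps. The *CDKN1A* stretch is chr6:36678464-36678763 on the plus strand. The *CDKN2B* stretch is chr9:22009256-22009555, that at the p16 start is chr9:21974808-21975107 and that at the ARF start is chr9:21995275-21995574, all on the minus strand.
CDKN1A: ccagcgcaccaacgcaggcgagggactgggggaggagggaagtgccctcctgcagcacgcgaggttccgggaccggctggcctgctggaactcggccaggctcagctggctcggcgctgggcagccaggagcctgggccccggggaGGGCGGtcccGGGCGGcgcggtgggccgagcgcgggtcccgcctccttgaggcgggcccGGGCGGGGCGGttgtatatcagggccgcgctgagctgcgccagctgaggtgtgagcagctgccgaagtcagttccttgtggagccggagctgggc
CDKN2B: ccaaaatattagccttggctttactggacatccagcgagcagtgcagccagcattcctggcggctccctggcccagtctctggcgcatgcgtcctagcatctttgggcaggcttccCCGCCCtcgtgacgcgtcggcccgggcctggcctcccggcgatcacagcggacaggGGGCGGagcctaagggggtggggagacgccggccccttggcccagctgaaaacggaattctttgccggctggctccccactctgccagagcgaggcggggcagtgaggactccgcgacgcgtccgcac
CDKN2A, p16 start: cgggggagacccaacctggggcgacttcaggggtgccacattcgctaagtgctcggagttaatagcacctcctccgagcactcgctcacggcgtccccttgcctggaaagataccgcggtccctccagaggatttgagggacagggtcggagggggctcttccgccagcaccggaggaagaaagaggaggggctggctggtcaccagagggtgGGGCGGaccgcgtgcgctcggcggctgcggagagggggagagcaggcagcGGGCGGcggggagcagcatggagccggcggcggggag
CDKN2A, ARF start: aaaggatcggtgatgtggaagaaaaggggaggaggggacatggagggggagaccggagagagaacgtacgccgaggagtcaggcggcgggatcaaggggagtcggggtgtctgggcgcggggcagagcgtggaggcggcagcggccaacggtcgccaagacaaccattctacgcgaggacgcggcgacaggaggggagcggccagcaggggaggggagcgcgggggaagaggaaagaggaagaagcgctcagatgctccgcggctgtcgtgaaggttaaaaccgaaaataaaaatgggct
The *CDKN1A* stretch held 4 GC boxes, those of *CDKN2B* and of the p16 start 2 each, and that of the ARF start 0. Of 35116 RefSeq start regions of this length, 45.0% held at least 1. The stretches held 29, 25, 26 and 28 CG dinucleotides, respectively, against a median of 14 over all start regions. The E-box CACGTG, the E2F letters TTTCCCGC or TTTGGCGC and the TATA letters TATAAA, searched on both strands, were in none of these 4 stretches, and were in 7.26%, 2.27% and 11.5% of all start regions. Of the other members, the table held 1 stretch for *CDKN1B*, with 1 GC box, 1 for *CDKN2D*, with 3, and 3 for *CDKN2C*, with 0, 6 and 1. *CDKN1C* had no entry.

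*CDKN2A* and *CDKN2B* are also close in sequence, which bears on how reads are assigned. Of the 31-base words of all *CDKN2A* transcripts annotated in GENCODE release 44, counted on either strand, 70 of 4030 also occurred in *CDKN2B*, and 536 occurred in the antisense gene *CDKN2B-AS1*, which is not analysed here. *CDKN2A* therefore had 85.0% words of its own and *CDKN2B* 98.0%. For *CDKN2C* the share was 80.3%, because 589 of 2987 words lay also in an overlapping antisense transcript (ENSG00000290102, not analysed here), and for the remaining 4 members it was between 96.1% and 100%. The libraries were stranded, but the strand setting of the pseudoalignment is not given in the sources used here, and without it reads on the words shared with the antisense genes could not be told apart. The deposited value of *CDKN2A* is 1 value for the gene and does not separate p16 from ARF.

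*FGFR2* was at 21.6, 39.7 and 15.02 FPKM in WT replicates 1 to 3 and at 3.04, 2.26 and 4.31 FPKM in KO replicates 1 to 3. All KO lines lay below all WT lines, and the study reports reduced *FGFR2* mRNA by RT-qPCR in all tested KO lines. The steps between low values gave an estimated depth of 67700000 to 88000000 fragments per library, at which 1 fragment per kilobase is worth 0.0114 to 0.0148 FPKM. Mitochondrial genes took 27.6%, 21.5% and 22.2% of the summed FPKM in WT and 15.8%, 23.7% and 11.9% in KO. On the first principal component, with 49.1% of the variance, WT replicate 2 (−46.3) and KO replicate 3 (47.7) lay farthest apart. The keratins *KRT5* (6086 to 14768 FPKM) and *KRT14* (2793 to 8652 FPKM), which define basal keratinocytes, were high in every library. Of the markers of other cells, *SOX10* (melanocytes) and *KDR* (endothelium) were listed at 0 in every library and *PTPRC* (leukocytes) was at 0.0604 to 0.153 FPKM. Other genes of the same lists were higher: *MITF* (melanocytes) at 0.529 to 4.01 FPKM, *VWF* (endothelium) at 5.66 to 27.1 FPKM and *CD68* (immune) at 4.41 to 20.4 FPKM. The fibroblast gene *COL1A1* was at 6.82 to 16.7 FPKM. In bulk RNA, fewer cells with a transcript and less transcript per cell cannot be told apart.

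None of the 7 genes was lost in all lines: each had a value above 0 in each of the 6 libraries. *CDKN1C* was above 1 FPKM only in WT replicate 2, at 9.34 FPKM, and its value in KO replicate 3 rested on an estimated 5.21 fragments. At this depth, a value above 0 does not by itself show expression in a line. The value of *CDKN2A* does not separate p16 from ARF, so a loss of p16 alone would not be seen. *CDKN1A* had the highest mean, 87.7 FPKM over all libraries, followed by *CDKN1B* with 43.6, *CDKN2A* with 36.4, *CDKN2B* with 29.0, *CDKN2C* with 13.1, *CDKN2D* with 6.84 and *CDKN1C* with 1.84 FPKM. This order pools both groups: in WT, *CDKN2A* and *CDKN2B* were level at 40.1 FPKM each, and in KO they were at 32.8 and 17.9 FPKM. *CDKN1A* was above *CDKN1B* and *CDKN2C* above *CDKN2D* in 6 of 6 libraries, which for 6 pairs gives 0.0312, the smallest p that the exact two-sided paired permutation test can reach (0.075 after Benjamini-Hochberg adjustment over the 6 neighbouring pairs). The neighbours *CDKN1B* and *CDKN2A*, *CDKN2B* and *CDKN2C*, and *CDKN2D* and *CDKN1C* kept their order in 5 of 6 libraries (adjusted exact permutation p = 0.075 each). *CDKN2A* and *CDKN2B* also kept it in 5 of 6, with an adjusted exact permutation p of 0.156, and no neighbouring pair differed at 0.05 after adjustment. The exceptions were KO replicate 2 for *CDKN1B* and *CDKN2A*, WT replicate 3 for *CDKN2A* and *CDKN2B*, KO replicate 3 for *CDKN2B* and *CDKN2C*, and WT replicate 2 for *CDKN1C*. The locus on 9p21, often deleted in tumours, was thus expressed in every line.

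**Figure D1:**
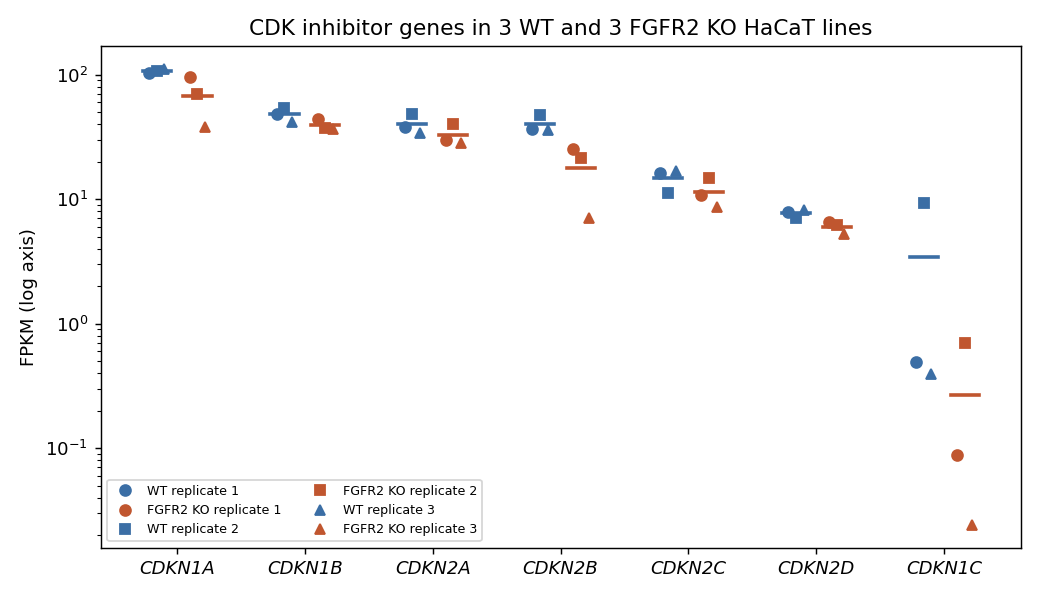
FPKM (log axis) of the 7 CDK inhibitor genes, ordered by their mean, in 3 WT (blue) and 3 FGFR2 KO (orange) HaCaT lines; symbols stand for replicate numbers and bars for group means (n = 3). The KO points of *CDKN1A*, *CDKN2B* and *CDKN2D* lie below all WT points, KO replicate 3 is the lowest KO line for each of the 7 genes, and WT replicate 2 stands alone for *CDKN1C* at 9.34 FPKM.

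FGFR2 KO and WT lines were compared to ask whether the inhibitors differ where the receptor is missing. All 7 genes had a lower fitted level in the KO lines, with log2 fold changes (KO against WT, on log2(FPKM + 0.5)) from −1.52 for *CDKN1C* to −0.28 for *CDKN1B* and a median of −0.37. Over all 12241 genes tested, 39.4% had a log2 fold change below 0 and the median was 0.09. In 3 of the 7 genes, *CDKN1A*, *CDKN2B* and *CDKN2D*, every KO line lay below every WT line, as did 5.77% of all genes tested. None of the 7 passed the thresholds set for limma (an adjusted p up to 0.05, with a log2 fold change of 0.5 or more in size), and neither did any other gene: 0 of 12241 were called (0%), with adjusted p-values from 0.261 upwards. The targeted gene *FGFR2* was not called either (log2 fold change −2.73, limma, unadjusted p = 9.2e-05, adjusted p = 0.261). An uncalled gene is therefore not shown to be unchanged. With the unadjusted p held to 0.05 at the same fold, limma counted 285 lower genes (2.33%), *CDKN1A* and *CDKN2B* among them, and 1251 higher genes (10.2%). That split depended on the scale: with median-of-ratios scaling, under which the median over all genes was −0.02 instead of 0.09, it was 521 lower and 785 higher. On that scale 4 of the 7 inhibitors had KO lines wholly below WT, *CDKN1B* being the fourth, against 11.2% of all genes.

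**Figure D2:**
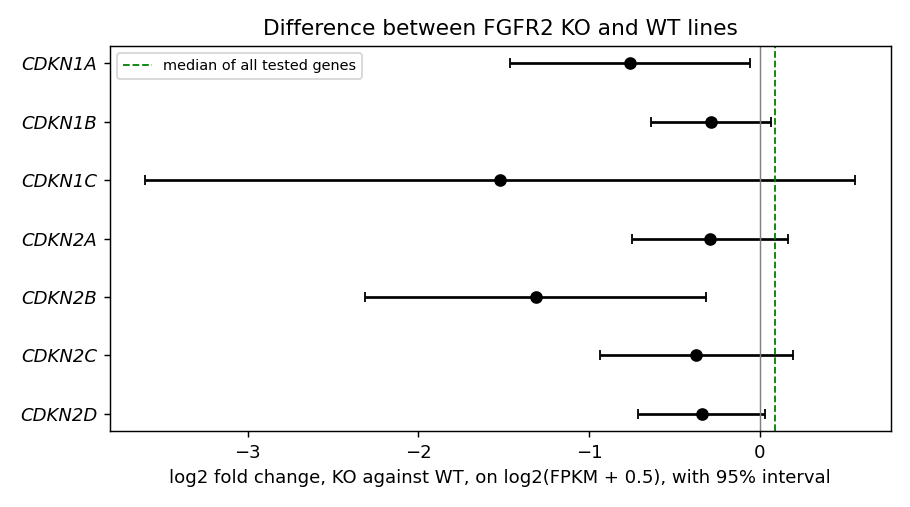
Log2 fold change, KO against WT, on log2(FPKM + 0.5) with its 95% interval from limma (3 lines a group) for each CDK inhibitor gene; the dashed line is the median of all 12241 tested genes (0.09). All 7 points lie below 0, the intervals of *CDKN1A* and *CDKN2B* end below 0, and that of *CDKN1C* is the widest.

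Among the CIP/KIP genes, *CDKN1A* (ENSG00000124762, chr6:36676460-36687337, plus strand), which encodes p21, was at 103.8, 107.5 and 111.5 FPKM in WT replicates 1 to 3. In KO replicates 1 to 3 it was at 94.9, 70.1 and 38.1 FPKM. The WT lines were close together (108 ± 3.87 FPKM, SD, n = 3), the KO lines were spread out (67.7 ± 28.4 FPKM, SD, n = 3), and the groups did not overlap. The log2 fold change was −0.76 with a standard error of 0.30 (limma, unadjusted p = 0.0378, adjusted p = 0.280). KO replicate 3 decided much of its size: without that library the log2 fold change was −0.40. Its start region, shown above, held 4 GC boxes, against 6 in 1 of the *CDKN2C* stretches and 3 in that of *CDKN2D*. A link between GC boxes and level was not tested.

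*CDKN1B* (ENSG00000111276, chr12:12685498-12722369, plus strand), which encodes p27, was at 48.2, 54.3 and 41.5 FPKM in WT and at 43.9, 37.2 and 36.6 FPKM in KO. KO replicate 1 lay above WT replicate 3, so that the groups overlapped, and the spread was the smallest of the 7 genes, with the highest line at 1.48 times the lowest. Its log2 fold change was −0.28 with a standard error of 0.15 and a 95% interval from −0.64 to 0.07 (limma, adjusted p = 0.371). Scaling to genes outside the mitochondrial genome moved it to −0.36, and the groups then no longer overlapped.

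*CDKN1C* (ENSG00000129757, chr11:2883213-2885775, minus strand) encodes p57 and is imprinted, with expression from the maternal copy. It was at 0.492, 9.34 and 0.392 FPKM in WT and at 0.0875, 0.697 and 0.0242 FPKM in KO. WT replicate 2 had 13.4 times the level of the next line, KO replicate 2, and the other 5 lines were all under 1 FPKM. The low values rest on few fragments, an estimated 5.21 in KO replicate 3 and 19.1 in KO replicate 1. The log2 fold change of −1.52 had a standard error of 0.89 (limma, adjusted p = 0.408) and the groups overlapped. Without WT replicate 2, the WT mean was 0.442 FPKM against 0.269 FPKM in KO, and the gene no longer reached the filter. *KCNQ1*, the host of the imprinting centre that acts on *CDKN1C*, was likewise highest in WT replicate 2, at 1.35 FPKM, with 0.109 and 0.145 FPKM in the other WT lines and 0.0420, 0.0828 and 0.0170 FPKM in KO, and was too low to be tested. Of the 5 tested imprinted or neighbouring genes of 11p15 (9 listed, 7 in the table), none had separate groups. *CD81* was the only one of the 5 with an unadjusted p under 0.05 (log2 fold change 0.73, limma, adjusted p = 0.261). *PHLDA2*, at 20.4, 38.4 and 20.4 FPKM in WT and at 26.5, 30.0 and 31.5 FPKM in KO, also had its highest value in WT replicate 2. So had *SLC22A18*, at 33.9 FPKM, whereas *CD81* and *TSSC4* were highest in KO replicate 3, at 159.5 and 36.4 FPKM. The median gene of chromosome 11 stood at −0.14, 0.22 and −0.14 in WT (log2 difference from the mean of all libraries). In KO it stood at 0.06, −0.03 and 0.05. *DCN*, a fibroblast gene, was at 15.5 FPKM in WT replicate 2 and at most 1.66 FPKM elsewhere. The rest of the fibroblast list did not single out that library. *COL1A1* was at 16.7 FPKM in WT replicate 2 and at 15.02 FPKM in WT replicate 1. *LUM* was at 0.903 FPKM in WT replicate 2 and highest in KO replicate 1, at 1.85 FPKM. *COL1A2*, *COL3A1*, *PDGFRA* and *PDGFRB* were at most at 0.0638 FPKM in any library. The part of fibroblast transcripts in the value of *CDKN1C* was not tested.

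Among the INK4 genes, *CDKN2B* (ENSG00000147883, chr9:22002903-22009305, minus strand), which encodes p15, was at 36.6, 47.5 and 36.1 FPKM in WT. It was at 25.1, 21.4 and 7.07 FPKM in KO. Every KO line lay below every WT line, and KO replicate 3 lay far below the other KO lines. The means were 40.1 ± 6.42 and 17.9 ± 9.51 FPKM (SD, n = 3 each), so that KO had 44.6% of the WT level. The log2 fold change was −1.31 with a standard error of 0.43 and a 95% interval from −2.31 to −0.31 (limma, unadjusted p = 0.0167, adjusted p = 0.261). Without KO replicate 3 it was −0.76. Its share of the summed FPKM of the 7 inhibitors was 15.2 ± 1.21% in WT and 9.61 ± 3.39% in KO (SD, n = 3 each). The shares of the other 6 genes overlapped between the groups, except for that of *CDKN1B*, which was at 19.2%, 19.05% and 16.7% in WT and at 20.8%, 19.5% and 29.5% in KO.

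*CDKN2A* (ENSG00000147889, chr9:21967752-21995301, minus strand), which encodes p16 and ARF, was at 38.2, 48.5 and 33.7 FPKM in WT and at 29.6, 40.4 and 28.3 FPKM in KO. KO replicate 2 lay above 2 of the WT lines, so that the groups overlapped. Between KO and WT the log2 fold change was −0.29 with a standard error of 0.20 and a 95% interval from −0.75 to 0.17 (limma, adjusted p = 0.466). It was −0.15 without WT replicate 2, −0.45 without KO replicate 2 and −0.19 without KO replicate 3. Its neighbour *CDKN2B* had the larger difference, but the difference between both log2 fold changes was not tested.

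*CDKN2C* (ENSG00000123080, chr1:50960745-50974634, plus strand), which encodes p18, was at 16.4, 11.1 and 16.9 FPKM in WT and at 10.8, 14.8 and 8.64 FPKM in KO. WT replicate 2 lay among the KO lines and KO replicate 2 among the WT lines. The log2 fold change was −0.37 with a standard error of 0.24 (limma, adjusted p = 0.451), and it was −0.56 without WT replicate 2, −0.57 without KO replicate 2 and −0.20 without KO replicate 3.

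*CDKN2D* (ENSG00000129355, chr19:10566460-10569059, minus strand), which encodes p19, was at 7.90, 7.01 and 8.16 FPKM in WT and at 6.51, 6.23 and 5.22 FPKM in KO. The groups did not overlap, although the gap between WT replicate 2 and KO replicate 1 was small. A log2 fold change of −0.34 was fitted, with a standard error of 0.16 and a 95% interval from −0.71 to 0.03 (limma, adjusted p = 0.322). For any single gene, the exact two-sided permutation test on 3 against 3 lines has 0.1 as its lowest p, the value that non-overlapping groups reach.

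Taking each family as a sum, the CIP/KIP genes had 152.5, 171.2 and 153.4 FPKM in WT and 138.9, 108.0 and 74.8 FPKM in KO. The INK4 genes, with ARF counted in the value of *CDKN2A*, had 99.0, 114.1 and 94.9 FPKM in WT and 72.0, 82.9 and 49.2 FPKM in KO. Neither sum overlapped between the groups, and both were lowest in KO replicate 3. The sums include *CDKN1A* and *CDKN2B*, whose own groups were separate, whereas *CDKN1B*, *CDKN1C*, *CDKN2A* and *CDKN2C* overlapped by themselves. A separate sum therefore does not stand for each member of its family, and no share was formed over other sums of genes. The sum of all 7 was 262 ± 20.5 FPKM in WT and 175 ± 45.5 FPKM in KO (SD, n = 3 each). Over the 6 libraries, log2(FPKM + 0.5) of *CDKN1A* and *CDKN2B* had a Pearson r of 0.97, that of *CDKN1A* and *CDKN2D* one of 0.91, and that of *CDKN1C* and *CDKN2C* one of 0.02. These 6 points share their depth and scaling, and KO replicate 3 was the lowest for every member, so the values are only a description. The number of inhibitors with separate groups stayed between 3 and 4 when either KO replicate 1, KO replicate 3 or a WT replicate was left out, against 6.9% to 11.3% of all genes. Without KO replicate 2 it was 6, all but *CDKN1B*, against 13% of all genes. *CDKN1A*, *CDKN2B* and *CDKN2D* were among them each time.

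Genes with the most similar pattern over the lines were then listed for each member. Most like *CDKN2B* were *GSTA4* (r = 0.998), a glutathione transferase gene, *TGM5* (r = 0.998), a transglutaminase gene of the differentiating epidermis, and *SOS2* (r = 0.995), an exchange factor gene for RAS, out of 12240 genes compared over 6 libraries. *TGM5* was at 8.34, 13.4 and 8.51 FPKM in WT and at 5.27, 4.63 and 0.853 FPKM in KO. Most like *CDKN1A* were *PPP1R21*, *BNIPL* and *ALDH3B2* (each r = 0.998), of which *ALDH3B2*, an aldehyde dehydrogenase gene, was at 40.8, 45.1 and 46.0 FPKM in WT and at 36.6, 17.7 and 3.37 FPKM in KO. Many genes came close with so few libraries, since r was above 0.95 for 140 genes with *CDKN2B* and for 104 with *CDKN1A*. For the other members the nearest genes were *TRAPPC6B*, *RAB30* and *PIERCE2* for *CDKN1B*, ENSG00000124593, *APOBR* and *SPOCK2* for *CDKN1C*, *NDUFA5*, *IL17RC* and *PIPOX* for *CDKN2A*, *NDE1*, *ZNF613* and *HSD11B2* for *CDKN2C*, and *CXCL14*, ENSG00000284906 and *EFNA4-EFNA3* for *CDKN2D*.

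The 9p21 locus was looked at gene by gene. Within 1 Mb of the start of *CDKN2B*, 5 other genes were tested, and none had KO lines wholly below WT. *MTAP*, the methionine salvage gene beside *CDKN2A*, was higher in KO: it was at 12.7, 12.4 and 12.1 FPKM in WT and at 15.1, 15.1 and 26.8 FPKM in KO. Its KO lines all lay above its WT lines (log2 fold change 0.54, standard error 0.23, limma, adjusted p = 0.295), as did 18.3% of all genes tested. Of the 6 tested 9p21 neighbours (10 listed), *MTAP* was the only one with separate groups, and *MLLT3*, *FOCAD* and *ELAVL2* had log2 fold changes of −0.46, 0.23 and 0.15. The median gene of chromosome 9 stood at −0.09, −0.23 and 0.00 (log2 difference from the mean of all libraries) in WT and at 0.10, 0.04 and 0.15 in KO, and after subtracting each chromosome's median *CDKN2B* had a log2 fold change of −1.52. Around *CDKN1A*, 1 of 19 tested genes within 1 Mb had KO lines wholly below WT and 3 had them above, about the shares over all genes (5.77% and 18.3%).

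**Figure D3:**
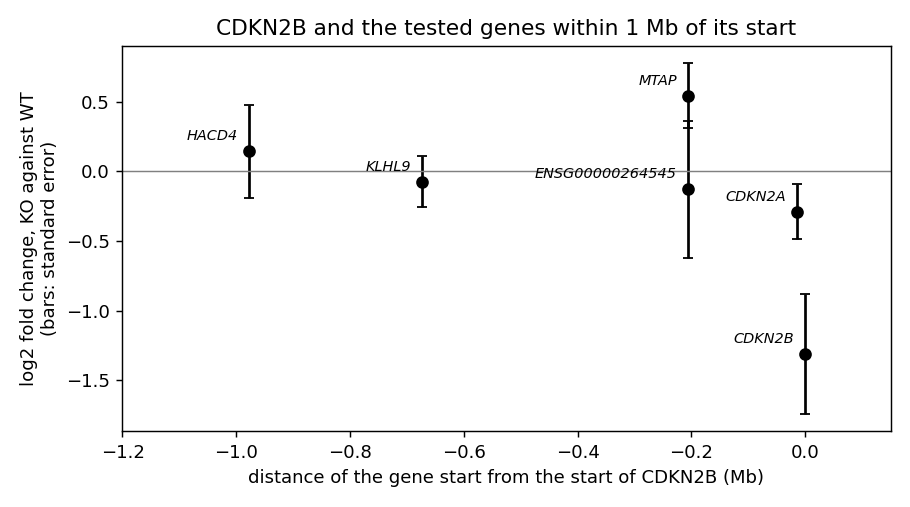
Log2 fold change, KO against WT, with its standard error (limma, 3 lines a group) of *CDKN2B* and the 5 other tested genes within 1 Mb, by the distance of their starts from that of *CDKN2B* in Mb. *CDKN2B* lies lowest at −1.31, *CDKN2A* beside it is at −0.29, and *MTAP* is above 0 at 0.54.

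The targets of the inhibitors were compared next, and none passed the test. Of the 14 cyclins and kinases, 5 had KO lines wholly above WT and 0 wholly below, with a median log2 fold change of 0.23, against 18.3% above, 5.77% below and a median of 0.09 over all genes. With median-of-ratios scaling it was 4 above and 1 below with a median of 0.12, against 12.2% above, 11.2% below and a median of −0.02. *CDK4*, the target of INK4 proteins, was at 47.2, 54.9 and 75.5 FPKM in WT and at 106.4, 80.9 and 197.4 FPKM in KO (log2 fold change 1.03, standard error 0.33, limma, adjusted p = 0.261). *CDK2*, the main target of p21 and p27, was at 33.7, 28.7 and 34.5 FPKM in WT and at 45.2, 45.7 and 78.2 FPKM in KO (0.75, standard error 0.23, limma, adjusted p = 0.261). Both kinases had separate groups, as had *CCND3*, *CCNE1* and *CCNE2*, of which *CCND3* lost it with median-of-ratios scaling. *CDK6*, the other INK4 target, was at 10.5, 10.5 and 9.99 FPKM in WT and at 12.0, 9.31 and 15.4 FPKM in KO, and the groups overlapped. *CCND1*, the most abundant D-type cyclin here, was at 319, 497 and 316 FPKM in WT and at 338, 395 and 451 FPKM in KO, with no separation.

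**Figure D4:**
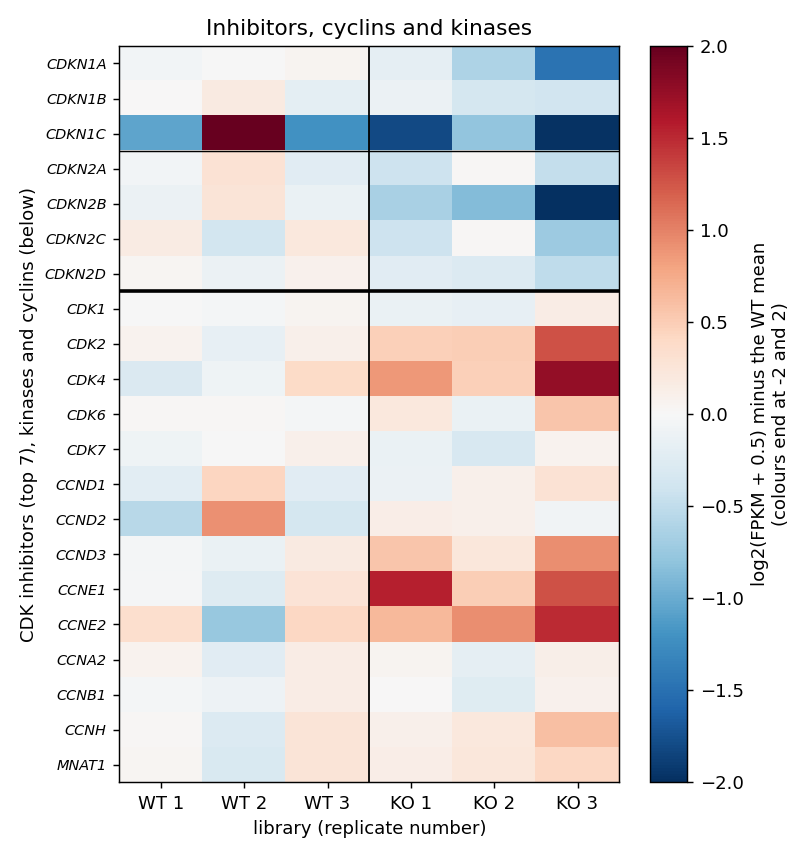
Log2(FPKM + 0.5) minus the WT mean (colour, ending at −2 and 2) in each of 6 libraries for the 7 CDK inhibitor genes (above the thick line) and the 14 cyclins and kinases (below it). KO replicate 3 is bluest for the inhibitors, where *CDKN1A* and *CDKN2B* lie farthest below WT apart from *CDKN1C*, and among the reddest for *CDK2*, *CDK4*, *CCNE1* and *CCNE2*.

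Ratios of an inhibitor to its kinase in the same library do not depend on the scaling of the library, and were formed after the values had been seen. The ratio of *CDKN2B* to *CDK4* was 0.776, 0.865 and 0.478 in WT and 0.235, 0.265 and 0.0358 in KO. That of *CDKN1A* to *CDK2* was 3.08, 3.75 and 3.23 in WT and 2.10, 1.53 and 0.488 in KO. That of *CDKN1B* to *CDK2* was 1.43, 1.90 and 1.20 in WT and 0.972, 0.815 and 0.468 in KO. All 3 ratios were lower in each KO line than in each WT line. The ratio of *CDKN2B* to *CDK6*, a kinase whose own groups overlapped, was 3.50, 4.54 and 3.61 in WT and 2.09, 2.30 and 0.461 in KO, again without overlap. The ratio of *CDKN2A* to *CDK4* was 0.809, 0.883 and 0.446 in WT and 0.278, 0.499 and 0.143 in KO, and KO replicate 2 lay above WT replicate 3. Its *CDKN2A* value counts ARF together with p16. Of the 11 ratios formed, 7 had separate groups, but no share was formed over other pairs of genes. *CDK2* and *CDK4* were themselves wholly higher in KO, which by itself lowers any ratio to them there. For *CDKN2D* to *CDK6* the groups were barely apart, at 0.6696 in WT replicate 2 and 0.6694 in KO replicate 2. Since kinase and inhibitor both enter, a ratio does not say which of them differed.

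**Figure D5:**
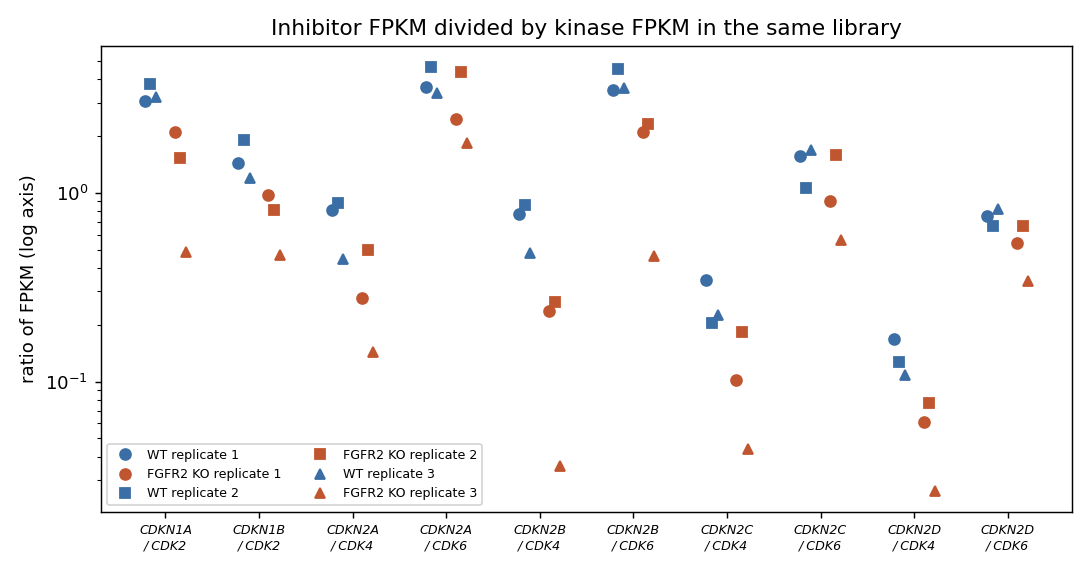
FPKM of an inhibitor divided by FPKM of its kinase in the same library (log axis) for 10 pairs, leaving out *CDKN1C*; blue points are WT and orange points KO lines, with symbols for replicate numbers. The ratio of *CDKN2B* to *CDK4* runs from 0.478 to 0.865 in WT and from 0.0358 to 0.265 in KO, and KO replicate 3 has the lowest ratio of every pair.

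Further down the pathway, the RB family and the E2F factors, which CDK2, CDK4 and CDK6 release, had 8 of 13 tested genes with KO lines wholly above WT and 0 wholly below, with a median log2 fold change of 0.41 (all genes: 18.3%, 5.77% and 0.09). *E2F1* was at 6.81, 4.06 and 6.83 FPKM in WT and at 13.4, 10.8 and 22.4 FPKM in KO (log2 fold change 1.29, limma, adjusted p = 0.261), and *E2F3*, *E2F8* and *TFDP1* had log2 fold changes of 0.75, 0.44 and 0.65. Of 14 proliferation genes, 8 had KO lines wholly above WT and 0 wholly below, with a median of 0.64, beside the same shares over all genes, and the MCM helicase genes *MCM2*, *MCM3*, *MCM6* and *MCM7* had log2 fold changes between 0.94 and 1.56. The list was not uniform, since *MKI67* (−0.40), *PLK1* (−0.13) and *TOP2A* (−0.01) had log2 fold changes below 0. Of 13 genes of the ubiquitin ligases that degrade p27 and p21, 3 had KO lines wholly above WT and 1 wholly below, close to the 18.3% and 5.77% of all genes, with a median of 0.17 that was 0.06 with median-of-ratios scaling. *SKP2*, the F-box gene for p27, was at 12.3, 9.41 and 13.6 FPKM in WT and at 15.04, 15.9 and 26.3 FPKM in KO (0.64, limma, adjusted p = 0.274). *DTL*, the adaptor gene for p21, was at 10.1, 4.59 and 12.5 FPKM in WT and at 18.7, 17.2 and 40.2 FPKM in KO (1.43, limma, adjusted p = 0.261). *CUL1* and *RBX1* had log2 fold changes of 0.49 and 0.35. None of these genes was called, and KO replicate 3 was the highest line for each of *E2F1*, *SKP2* and *DTL*.

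Regulators upstream were mixed. Of 21 tested transcription factors that act on inhibitor genes (22 listed), 3 had KO lines wholly above WT and 0 wholly below, near the 18.3% and 5.77% of all genes, with a median of −0.07. With median-of-ratios scaling it was 1 above and 2 below. *MYC*, which represses *CDKN2B* and *CDKN1A* through MIZ1, was at 18.6, 29.3 and 25.2 FPKM in WT and at 44.1, 29.3 and 57.7 FPKM in KO (log2 fold change 0.80, limma, adjusted p = 0.261). KO replicate 2 and WT replicate 2 were at nearly the same level, and the groups overlapped with median-of-ratios scaling. *FOXO3* and *FOXO4*, activators of *CDKN1B*, had log2 fold changes of −0.70 and −0.84, and *SMAD3*, which carries the TGF-β signal to *CDKN2B*, one of −0.37, all with overlapping groups. Of 19 genes of the Polycomb group, which silences the 9p21 locus, and of opposing demethylases, 4 had KO lines wholly above WT and 1 wholly below, near the 18.3% and 5.77% of all genes, with a median of 0.15. With median-of-ratios scaling, and with scaling to genes outside the mitochondrial genome, it was 1 above and 1 below. *CBX2* was at 2.80, 1.29 and 2.96 FPKM in WT and at 5.38, 5.78 and 10.3 FPKM in KO (1.43, limma, adjusted p = 0.261). *EZH2* was at 14.2, 11.5 and 18.1 FPKM in WT and at 19.04, 19.05 and 25.6 FPKM in KO (0.54, limma, adjusted p = 0.275) and overlapped on both of those scales. *SUZ12* and the demethylase gene *KDM6B* had log2 fold changes of 0.44 and −0.77.

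Cell state was read from lists as well. Of 10 tested suprabasal differentiation genes (11 listed), all 10 had a log2 fold change below 0, with a median of −0.66, but none had separate groups. Over all genes tested, 39.4% were below 0, the median was 0.09, and KO lines lay wholly above WT in 18.3% and wholly below in 5.77%. Their summed FPKM was 4141, 1700 and 8731 in WT and 5708, 2404 and 545 in KO, so that the lowest value was again that of KO replicate 3. *IVL* (−1.17), *FLG* (−0.51), *SPRR1A* (−1.67) and *KRT10* (−1.37) had adjusted p-values in limma between 0.285 and 0.481. Of 14 basal keratinocyte markers, only *LAMA3* had KO lines wholly above WT and only *CDH1* wholly below (all genes: 18.3% and 5.77%), and the median was −0.01. Of 9 tested senescence-associated genes (14 listed), only the collagenase gene *MMP1* had KO lines wholly above WT (all genes: 18.3%). It was at 0.493, 0.452 and 0.881 FPKM in WT and at 2.09, 2.33 and 6.40 FPKM in KO. *PLAUR*, *LMNB1* and *CXCL8* had log2 fold changes of 0.66, 0.32 and 0.63, all with overlapping groups. The list was not sorted by the direction of change in senescence, so no median is read from it. A difference in senescence was not tested on these RNA values. The study reports that WT and KO lines in serum-containing medium did not differ in β-galactosidase-positive cells, its measure of senescence.

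Few markers of other cell types passed the filter, but *VWF*, *CD68* and *COL1A1* reached 27.1, 20.4 and 16.7 FPKM. Of the fibroblast, melanocyte, immune and endothelial lists, 2 genes each were tested (of 7, 7, 6 and 4 listed), and all 8 had log2 fold changes below 0, as had 39.4% of all genes tested. The summed FPKM of these lists ran, for fibroblasts, from 7.99 to 33.2 in WT and from 6.92 to 12.6 in KO. For melanocytes it ran from 3.06 to 5.58 in WT and from 1.24 to 4.86 in KO. The immune sum ran from 12.8 to 23.1 in WT and from 5.31 to 12.0 in KO, of which *CD68*, a lysosomal gene, made the most. The endothelial sum ran from 18.1 to 27.2 in WT and from 5.82 to 17.5 in KO, nearly all of it *VWF*. *CD68* and *VWF* each had KO lines wholly below WT, as had 5.77% of all genes tested, and the part of such markers in the inhibitor levels was not tested.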

How the data were processed

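RNA was measured in 6 HaCaT libraries by stranded mRNA sequencing. Per the labels and methods, the authors trimmed reads with fastp (0.20.0) and pseudoaligned them with kallisto (0.46.1) to GRCh38 with GENCODE 37, and the deposited values are FPKM per gene; how the FPKM were calculated is not given in the sources used here. Of 21493 genes, 18 Y copies of pseudoautosomal genes with the values of their X copies were left out, and positions came from GENCODE 44. Depth was estimated from the steps between low values, 66.9% to 71.0% of which (676 to 796 per library) were whole fragments within 0.02, so that whole reads were not recovered and no count test was run. Groups and replicate numbers are those of the labels.

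Genes averaging 0.5 FPKM or more over the libraries were compared with limma 3.58.1 (R 4.3.3) on log2(FPKM + 0.5), with a mean-variance trend and Benjamini-Hochberg adjustment over all 12241 genes. The fold change understates that of low genes. Neighbours in the order of levels were compared by an exact paired permutation test (SciPy 1.17.1, Python 3.11.15). The limma step was tested on simulated data. Named genes are the members, *FGFR2*, up to 4 genes per list by unadjusted p (all in the cyclin and 9p21 lists), and the 3 genes of highest Pearson r; *KCNQ1*, *MKI67*, *PLK1*, *TOP2A*, *KRT5*, *KRT14* and the markers at or near 0 were chosen after their values were seen. Members and lists were chosen with earlier results of these data known. Some items are not reported here.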

Additional observations from a re-analysis of the deposited data

How the results depend on the processing

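Each of the 7 inhibitors kept a log2 fold change below 0 and stayed uncalled in limma in every alternative run, which were 19 for each gene and 17 for *CDKN1C*; that gene could not be tested with a mean of at least 2 FPKM or without WT replicate 2, since it fell under the filter. Leaving out 1 library at a time gave −1.05 to −0.40 for *CDKN1A*, −0.38 to −0.19 for *CDKN1B*, −2.12 to −1.29 for *CDKN1C*, −0.45 to −0.15 for *CDKN2A*, −1.64 to −0.76 for *CDKN2B*, −0.57 to −0.20 for *CDKN2C* and −0.40 to −0.25 for *CDKN2D*, and 0 genes were called each time. *CDKN1C* had −2.40 with a pseudocount of 0.1 and −0.62 with library weights, and *CDKN2A* had −0.50 with chromosome medians removed. Library weights, which gave WT replicate 1 89.7% of the WT weight, called 1396 of 12241 genes, 1160 higher and 236 lower, none of the 7 among them (*CDKN1A* −0.44, *CDKN2B* −0.86 with adjusted p = 0.0612); the cause was not tested. Genes with an unadjusted p up to 0.05 split into 1251 higher and 285 lower with the FPKM as deposited. The split was 785 and 521 with median-of-ratios scaling, 803 and 502 after quantile normalization, 930 and 400 scaled to genes outside the mitochondrial genome, and 759 and 490 with chromosome medians removed. Without KO replicate 3 it was 535 and 95. The order of the 7 mean levels was the same in each scaling run.

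The groups share replicate numbers, and the labels do not say whether equal numbers stand for a shared batch. The deviations of same-numbered libraries from their group means correlated at −0.21, 0.22 and 0.05, and those of differently numbered ones at −0.37 to 0.29. Deviations from means of 3 libraries depend on each other, so these values cannot decide whether the numbers pair the lines. With the replicate number as a block, 0 genes were called (smallest adjusted p 0.0972; unadjusted, 1336 higher and 426 lower), and *CDKN2B* had −1.31 with adjusted p = 0.137. Depth limits *CDKN1C* above all, with an estimated 5.21 fragments in KO replicate 3; without counts, no interval for counting error is given.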
